A study of Mus musculus with 4 samples.

Results

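The VEGF ligands and receptors were followed in RNA of whole mouse retina as 9 genes, taken from the deposited table of 23278 genes by symbol. They are the ligands Vegfa, Vegfb, Vegfc and Pgf, the receptor kinases Flt1, Kdr and Flt4, and the co-receptors Nrp1 and Nrp2. All 9 symbols were found. The retinas came from mice aged 10 postnatal days. Their background was mixed (C57BL6 and 129 at least), and all were injected with 20 ug of 4HT (active tamoxifen) on postnatal day 3. The 4 genotypes were WT, NdpKO (without the gene of the secreted ligand Norrin), stabilized (Ctnnb1flex3/+;Pdgfb-CreER) and stabilized NdpKO (NdpKO;Ctnnb1flex3/+;Pdgfb-CreER). Ctnnb1flex3 turns into a stabilized form of beta-catenin after recombination, and Pdgfb-CreER is a recombinase driven by Pdgfb sequence in endothelial cells. WT and NdpKO have no CreER in their labels, so the recombinase is present in the same libraries as the stabilized allele and their effects cannot be told apart. Each genotype gave 1 library, for which RNA of 3 batches was pooled, and a batch held 4 to 8 retinas of 2 to 4 mice. There are therefore no replicates, and no p-value was computed. The intervals below are those deposited with each FPKM. How they were derived is not stated, and with 1 library per genotype they do not measure the spread between mice.

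VEGF-A is the main growth and permeability factor of the retinal vasculature. In the developing retina it is made by astrocytes, Muller glia and neurons under the control of oxygen, and acts on endothelial cells that grow towards its source. Its signals pass mainly through VEGFR2, the product of Kdr, while VEGFR1, the product of Flt1, binds it tightly and also exists as a secreted decoy. Norrin and endothelial beta-catenin act in the same vessels, where they govern growth of the deep vascular layers and the blood-retina barrier.

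Upstream sequences are shown for 4 members, Flt1, Kdr, Nrp2 and Vegfa. Flt1, Kdr and Nrp2 were higher in both stabilized libraries than in their controls, as were Flt4 and Nrp1, and Vegfa was lower in both. The windows end at the start site given by RefSeq (GRCm38.p6, the assembly of mm10) and are cut where the GENCODE M21 gene begins. Those of Flt4 and Nrp1 lie inside their GENCODE genes, which leaves no bases to print. Capitals mark a match to 1 of 3 motifs searched on both strands, the HIF core ACGTG, the TCF/LEF core CTTTGA and the ETS core CCGGAA.
Flt1, chr5:147726012-147726261, minus strand: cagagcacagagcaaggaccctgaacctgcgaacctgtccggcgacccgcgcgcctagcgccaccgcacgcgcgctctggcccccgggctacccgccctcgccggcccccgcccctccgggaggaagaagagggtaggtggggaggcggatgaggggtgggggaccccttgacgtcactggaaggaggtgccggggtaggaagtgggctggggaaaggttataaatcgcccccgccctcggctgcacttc
Kdr, chr5:75978459-75978705, minus strand: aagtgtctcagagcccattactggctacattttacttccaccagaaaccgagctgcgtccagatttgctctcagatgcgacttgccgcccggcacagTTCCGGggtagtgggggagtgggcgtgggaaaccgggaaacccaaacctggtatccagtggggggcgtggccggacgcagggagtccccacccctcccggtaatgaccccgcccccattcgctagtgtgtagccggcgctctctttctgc
Nrp2, chr1:62703067-62703284, plus strand: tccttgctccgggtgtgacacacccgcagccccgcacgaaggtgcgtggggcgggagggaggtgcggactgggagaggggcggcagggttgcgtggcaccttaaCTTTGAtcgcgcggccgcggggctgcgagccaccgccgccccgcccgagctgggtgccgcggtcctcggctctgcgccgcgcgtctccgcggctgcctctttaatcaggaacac
Vegfa, chr17:46032378-46032627, minus strand: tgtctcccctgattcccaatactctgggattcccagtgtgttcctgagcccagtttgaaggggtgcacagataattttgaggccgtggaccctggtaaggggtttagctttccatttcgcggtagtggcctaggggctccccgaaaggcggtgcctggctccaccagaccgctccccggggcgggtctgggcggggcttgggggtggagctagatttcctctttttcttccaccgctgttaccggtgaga
Over the full 250 bases upstream, the ETS core was found in the Kdr window and the TCF/LEF core in the Nrp2 window. None of the 3 motifs was found in the windows of Flt1 and Vegfa shown here. Of 32851 upstream windows of the same length, 12.03% held the ETS core, 13.8% the TCF/LEF core and 16.6% the HIF core. All 9 members had a window, 11 in all, and each motif was found in 1 member. The 1 HIF core lay in a second window of Vegfa, at an internal start site that is not printed. These matches describe letters and not bound sites.

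FPKM are scaled to transcript length, so levels of different genes can be set side by side within a library. Vegfa was the highest of the 9 genes in every library and Kdr the second. Vegfb followed, then Nrp2, Nrp1, Flt1, Vegfc, Pgf and Flt4, and this order was the same in all 4 libraries. The deposited intervals of Vegfa, Kdr and Vegfb did not overlap those of the next gene in any library. Those of Nrp2 and Nrp1 overlapped in every library, as did those of Vegfc and Pgf. Nrp1 and Flt1 overlapped in NdpKO, the stabilized and stabilized NdpKO library, and Flt1 and Vegfc in WT only. Pgf and Flt4 overlapped in every library but WT. In WT, 95.6% of the 13150 genes that averaged 1 FPKM or more and had status OK throughout lay below Vegfa and 85.3% below Kdr. Flt1 lay above 12.3% of them and Nrp2 above 22.9%. Of the members 8 reached that mean. Flt4 did not, with a mean of 0.585 FPKM, and Pgf did so narrowly at 1.02 FPKM. Pgf was below 1 FPKM in WT and NdpKO and reached that mean only through the stabilized libraries. Counts and medians over the 8 tested members therefore partly reflect that choice.

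**Figure D1:**
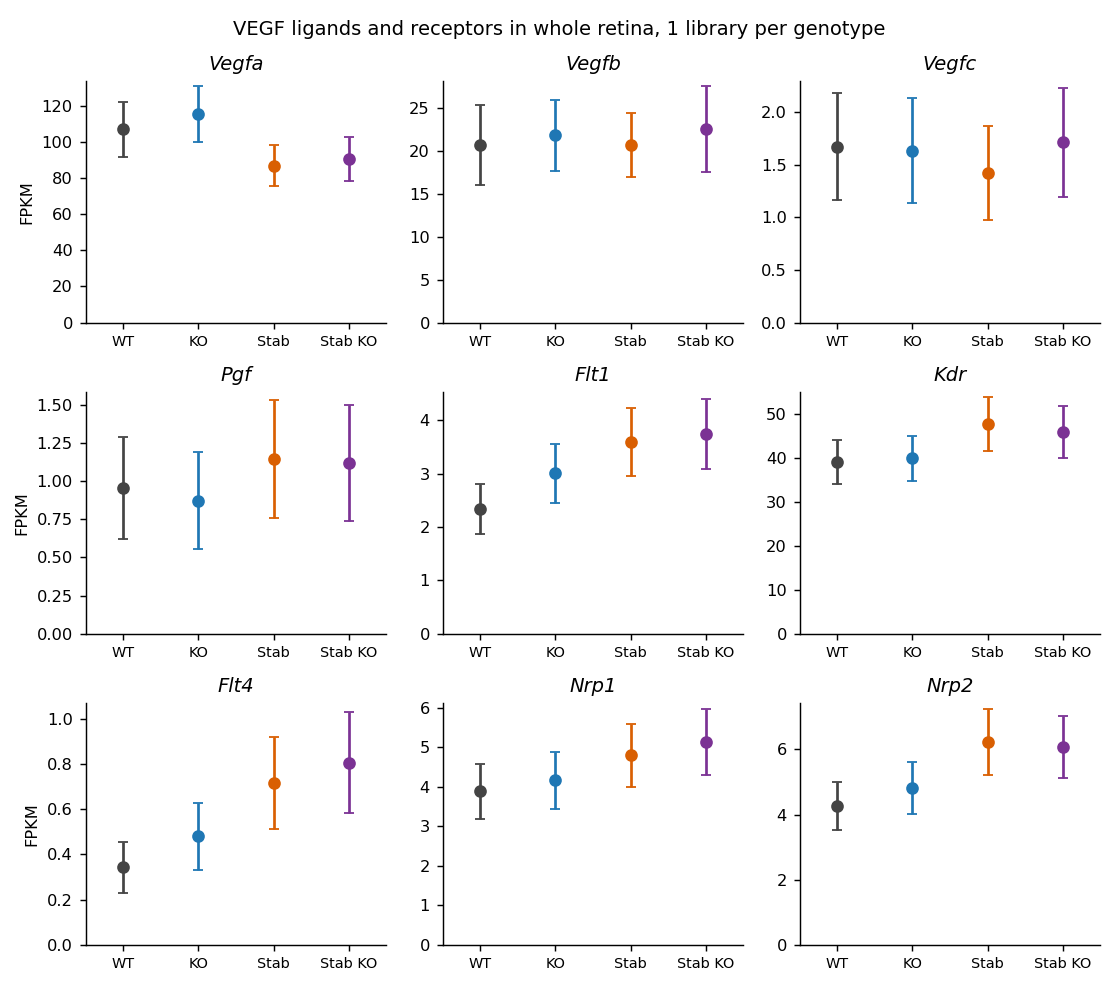
Level of each VEGF ligand and receptor in whole retina, in FPKM on linear axes from 0, in WT, NdpKO (KO), stabilized (Stab) and stabilized NdpKO (Stab KO) libraries, 1 library each. Points are deposited FPKM and bars their deposited intervals. Vegfa is lower in both stabilized libraries and each of the 5 receptors is higher there than in WT and NdpKO.

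Whole retina holds few endothelial cells. The part that fewer cells of a type and less RNA per cell play in a level cannot be told apart in such RNA. Ndp stood at 2.98 FPKM for WT, 2.35 FPKM in the stabilized retinas and 0.873 and 0.869 FPKM in NdpKO and stabilized NdpKO. The female-specific Xist was at 130 and 135 FPKM in the libraries with intact Ndp and at 1.25 and 1.28 FPKM in those without. Sex and Ndp genotype therefore cannot be told apart. Read totals are not stated. The interval widths of genes under 1 FPKM give an approximate depth of 0.426 to 0.577 of that of WT for the other libraries. This is an estimate that could not be checked against read totals. The interval reached 12.7% to 36.1% of the value to either side for the members, widest for Pgf and narrowest for Kdr. Its median over all tested genes was 17.4% to 17.6% in each library. The widths of these genes therefore did not follow the approximate depth.

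The ligands are described first. Vegfa (chr17:46016993-46032369, minus strand, coordinates of GENCODE M21 on mm10 here and below) was at 107 FPKM (deposited interval from 91.7 to 123) in WT and 116 FPKM in NdpKO (100.2 to 131). It was at 87.0 FPKM in the stabilized retinas (75.6 to 98.4) and 90.8 FPKM in stabilized NdpKO (78.6 to 103). Both stabilized libraries were thus below both others, but the intervals overlapped in each of the 5 comparisons. NdpKO against the stabilized retinas is not among the 5, and there the intervals were apart (lower bound 100.2 against upper bound 98.4). The stabilized retinas had 0.812 times the WT value, with 0.617 and 1.07 as the ratios that the outer bounds of the intervals allow. Stabilized NdpKO had 0.785 times the value of NdpKO, with outer bounds of 0.599 and 1.03. On the scale of log2(FPKM + 0.5), on which all log2 ratios here are given, these differences were -0.30 and -0.35. Of all tested genes 10.02% had a lower ratio than Vegfa in the first of these pairs and 2.82% in the second.

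Vegfb encodes a ligand of VEGFR1 linked to cell survival and lipid uptake rather than to vessel growth. Vegfb (chr19:6982473-6987651, minus strand) was at 20.7 FPKM in WT and in the stabilized retinas, 21.8 FPKM in NdpKO and 22.5 FPKM in stabilized NdpKO. Its highest value was 1.09 times its lowest, the narrowest range of the 9 genes.

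Vegfc, the ligand of VEGFR3 best known for lymphatic growth, lies on chr8:54077606-54187096 (plus strand). It was at 1.67 FPKM in WT, 1.64 FPKM in NdpKO, 1.42 FPKM in the stabilized retinas and 1.71 FPKM in stabilized NdpKO. Pgf, placental growth factor, which binds VEGFR1 alone among the receptor kinases, lies on chr12:85166635-85177790 (minus strand). It was at 0.953 FPKM in WT, 0.872 FPKM in NdpKO, 1.15 FPKM in the stabilized retinas and 1.12 FPKM in stabilized NdpKO. The intervals of Vegfc overlapped across all 4 libraries, as did those of Pgf and of Vegfb. Vegfa supplied 82.1% of the summed FPKM of the 4 ligands in WT, 82.6% in NdpKO, 78.9% in the stabilized retinas and 78.2% in stabilized NdpKO. The remaining VEGF ligand in the table, Figf (VEGF-D), was at no more than 0.0880 FPKM in any library.

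The receptors had higher values in the stabilized libraries. Flt1 (chr5:147561604-147726011, minus strand) was at 2.34 FPKM in WT (1.88 to 2.81), 3.01 FPKM in NdpKO (2.45 to 3.56), 3.60 FPKM in the stabilized retinas (2.97 to 4.24) and 3.75 FPKM in stabilized NdpKO (3.10 to 4.40). WT was the lowest and its interval was apart from those of both stabilized libraries, while NdpKO overlapped with all 3 others. The stabilized retinas had 1.54 times the WT value (outer bounds 1.05 and 2.26) and stabilized NdpKO 1.25 times that of NdpKO (0.869 and 1.80). The log2 ratios were 0.53 and 0.28. Values are per gene, so membrane-bound and secreted VEGFR1 are not separated.

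Kdr (chr5:75932827-75978458, minus strand) encodes VEGFR2. It was at 39.0 FPKM in WT (34.0 to 44.0), 39.9 FPKM in NdpKO (34.8 to 45.0), 47.7 FPKM in the stabilized retinas (41.5 to 53.9) and 45.7 FPKM in stabilized NdpKO (39.8 to 51.6). The values of both stabilized libraries were above both others, and all intervals overlapped. The ratio to WT was 1.22 in the stabilized retinas (outer bounds 0.944 and 1.58). Stabilized NdpKO had 1.15 times the value of NdpKO (0.886 and 1.48).

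Flt4 (chr11:49609263-49652739, plus strand) encodes VEGFR3, found on lymphatic endothelium and on the sprouting endothelium of growing blood vessels. It was the lowest member, at 0.343 FPKM in WT (0.230 to 0.455), 0.480 FPKM in NdpKO (0.331 to 0.628), 0.714 FPKM in the stabilized retinas (0.511 to 0.918) and 0.805 FPKM in stabilized NdpKO (0.583 to 1.03). The WT interval was apart from those of both stabilized libraries. The ratio of deposited values was 2.09 in the stabilized retinas against WT (1.12 and 4.00) and 1.68 in stabilized NdpKO against NdpKO (0.929 and 3.10), the largest among the members. Because values this low are damped by the pseudocount of 0.5 FPKM, the log2 ratios were 0.53 and 0.41. Beside it, 5 lymphatic genes, among them Prox1, Pdpn and Reln, which cells of the retina itself also express, summed to 89.2 FPKM in WT, 90.9 FPKM in NdpKO, 96.3 FPKM in the stabilized retinas and 95.8 FPKM in stabilized NdpKO. Of 4 tested, Reln alone was 1.5-fold higher in the stabilized retinas than in WT, at 25.2 against 12.5 FPKM. It was also the only 1 of the 4 with a ratio above 0 there, and the median was -0.11. In stabilized NdpKO against NdpKO 1 of the 4 was above 0, with a median of -0.04. Their part in the Flt4 values was not tested.

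Nrp1 and Nrp2 encode neuropilins, which bind VEGF ligands as co-receptors and also serve class 3 semaphorins in axon guidance. Nrp1 (chr8:128358604-128503363, plus strand) was at 3.89 FPKM in WT, 4.17 FPKM in NdpKO, 4.80 FPKM in the stabilized retinas and 5.13 FPKM in stabilized NdpKO, with overlapping intervals throughout. Nrp2 (chr1:62703285-62818695, plus strand) was at 4.26 FPKM in WT (3.53 to 4.99), 4.81 FPKM in NdpKO (4.01 to 5.62), 6.23 FPKM in the stabilized retinas (5.23 to 7.23) and 6.07 FPKM in stabilized NdpKO (5.12 to 7.01). For Nrp2 the WT interval was apart from those of both stabilized libraries, and NdpKO overlapped with all others. The log2 ratio under stabilization was 0.27 for Nrp1 on both Ndp backgrounds. That of Nrp2 was 0.50 with Ndp intact and 0.30 without Ndp. Nrp1 overlaps the microRNA gene Mir1903 on the same strand. Nrp2 overlaps Gm37121 on the same strand and Gm29083 on the opposite one, and the labels do not say whether strand was kept. These overlaps are those of GENCODE M21. Among the loci of the deposited genes, Nrp1 overlaps Mir1903 and Nrp2 overlaps 4930487H11Rik. No other member overlaps another gene in either source. How reads at these overlaps were counted is not stated, and the intervals of Nrp1 and Nrp2 need not include this uncertainty.

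The comparison of the stabilized retinas with WT addresses activation of endothelial beta-catenin with Ndp intact. The 5 receptors were above WT, with log2 ratios from 0.27 (Nrp1) to 0.53 (Flt1 and Flt4), and Vegfa was below it at -0.30. None of the 8 tested members was at least 1.5-fold higher, as were 1.67% of all tested genes, and none was 1.5-fold lower, as were 1.71%. After rescaling to TPM these shares of all tested genes were 2.43% and 1.63%. Flt1 and Nrp2, 2 of the 8, had deposited intervals above and apart from those of WT, against 1.76% of all tested genes. None had an interval below and apart, against 1.57%. The median over the 8 members was 0.22 and that over all tested genes -0.02. The call on Flt1 sits at the threshold, since its deposited values are 1.54-fold apart and fall to 1.44-fold with the pseudocount.

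Stabilized NdpKO against NdpKO repeats the contrast without Ndp and shares no library with the first. The signs were the same for each of the 5 receptors, with log2 ratios from 0.20 (Kdr) to 0.41 (Flt4), and for Vegfa at -0.35. Both statements held under each pseudocount and each rescaling tried. No tested member was 1.5-fold higher, against 1.76% of all genes, or 1.5-fold lower, against 0.92%. No tested member had intervals apart in this pair, against 1.26% of genes above and 0.487% below. The median was 0.22 for the members and 0.03 for all tested genes. The ratios of Flt1, Nrp2, Flt4 and Kdr were smaller without Ndp by 0.25, 0.20, 0.11 and 0.09 on the log2 scale, and that of Nrp1 was the same to 2 decimals. With 1 library per genotype this difference of effects has no test.

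**Figure D2:**
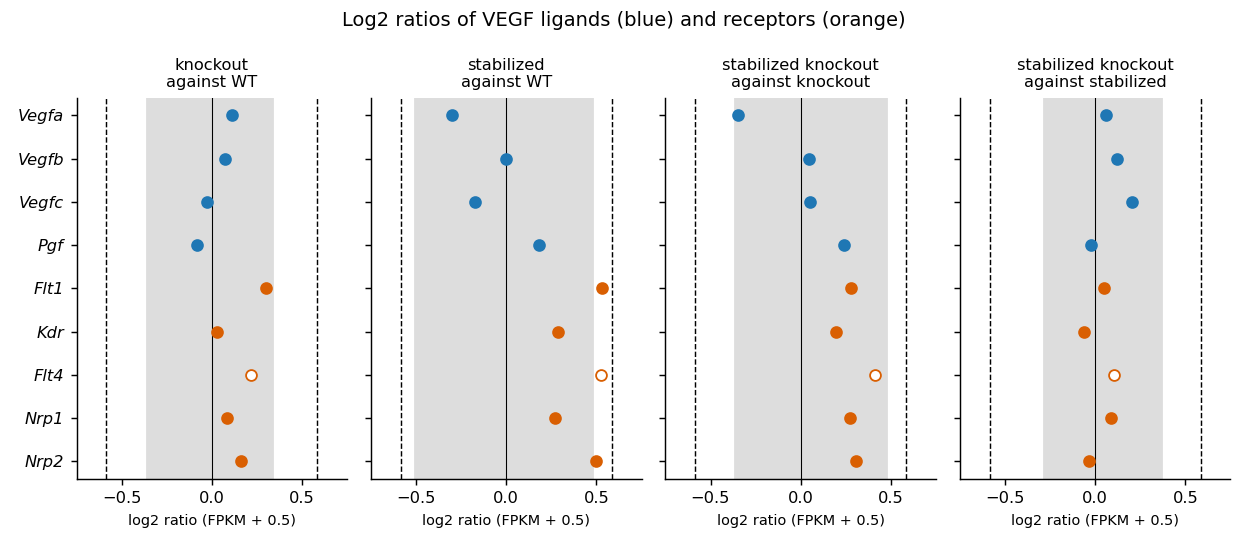
Log2 ratios of FPKM + 0.5 for the 4 ligands (blue) and 5 receptors (orange) in 4 comparisons, 1 library against 1. The open circle is Flt4, which is under the minimum mean of 1 FPKM, the grey band holds the central 95% of all 13150 tested genes, and dashed lines mark 1.5-fold. The receptors lie to the right of 0 and Vegfa to the left in both stabilization comparisons, and all points lie inside the 1.5-fold lines.

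The comparison of NdpKO with WT addresses the loss of Norrin and shares the WT library with the first one. Kdr had a log2 ratio of 0.03, Nrp1 0.09, Nrp2 0.16, Flt4 0.22 and Flt1 0.30, and all deposited intervals overlapped. The ligands ran from -0.08 (Pgf) to 0.11 (Vegfa). No tested member was 1.5-fold higher or lower, where 0.966% and 1.22% of all tested genes were. None had intervals apart, where 0.433% of genes did above WT and 0.327% below. Flt1 exceeded WT by 1.28 times with outer bounds of 0.871 and 1.90, so neither an unchanged level nor a difference of 1.5-fold lies outside those bounds. The median was 0.08 for the members and -0.02 for all genes.

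Stabilized NdpKO against the stabilized retinas sets Ndp loss in the presence of stabilized beta-catenin. Log2 ratios ran from -0.06 (Kdr) to 0.20 (Vegfc), with Flt1 at 0.05, Flt4 at 0.10 and Vegfa at 0.06. No tested member was 1.5-fold higher or lower, against 0.981% and 0.692% of tested genes, and none had intervals apart, against 0.312% and 0.213%. Rescaling to the same total moved Vegfa to -0.01 and Flt1 to -0.02, so the sign of either depended on the scaling.

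Stabilized NdpKO against WT joins both changes and shares a library with each of the other comparisons. Flt4 had the highest log2 ratio at 0.63, followed by Flt1 (0.58), Nrp2 (0.46), Nrp1 (0.36) and Kdr (0.23). Vegfa was at -0.24. Flt4, at 2.35 times the WT value (outer bounds 1.28 and 4.47), was past 1.5-fold with the pseudocount but under the minimum mean. Of the 8 tested members none was 1.5-fold higher, against 1.79% of genes, and none lower, against 1.07%. Flt1 and Nrp2 had intervals above and apart from those of WT, against 2.02% of genes, and none had one below, against 0.464%.

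Ligand and receptor levels were also set against each other within each library. Vegfa was at 2.75 times the FPKM of Kdr in WT (2.08 and 3.60 from the outer bounds of both intervals) and 2.90 times in NdpKO (2.23 and 3.77). It was at 1.82 times in the stabilized retinas (1.40 and 2.37) and 1.98 times in stabilized NdpKO (1.52 and 2.59). The point ratios of the stabilized libraries were lower than those of the others, and the bounds overlapped. Relative to Flt1, Vegfa stood at 45.7 in WT, 38.5 in NdpKO and 24.2 in both stabilized libraries. Vegfc relative to its receptor Flt4 stood at 4.88 in WT, 3.41 in NdpKO, 1.99 in the stabilized retinas and 2.13 in stabilized NdpKO. These ratios compare RNA of different cell types in a whole tissue and not the amounts of protein that meet.

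**Figure D3:**
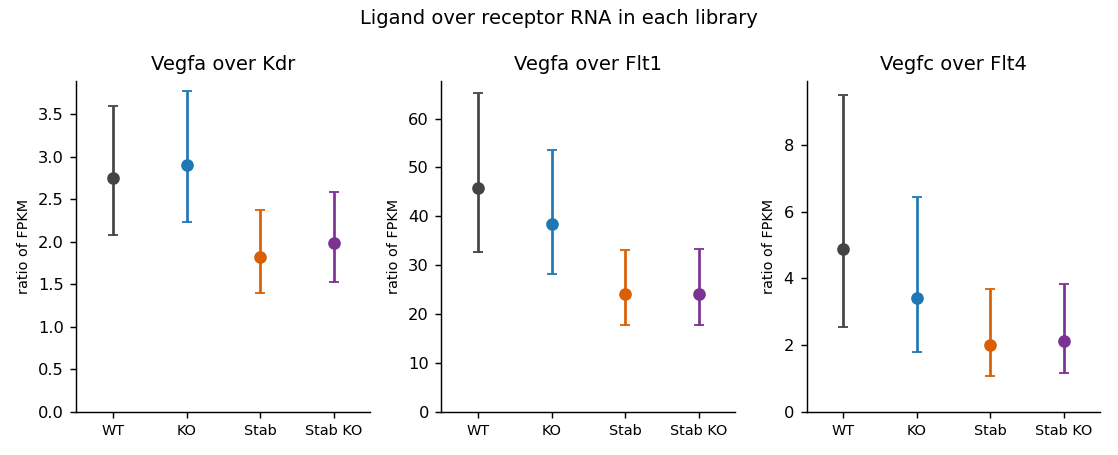
Ratio of ligand FPKM to receptor FPKM in each library for Vegfa over Kdr, Vegfa over Flt1 and Vegfc over Flt4, on linear axes from 0. Points are ratios of deposited values, and bars run between the ratios that the outer bounds of both deposited intervals allow. Both stabilized libraries lie below WT and NdpKO in each panel, for example 1.82 and 1.98 against 2.75 and 2.90 for Vegfa over Kdr, with overlapping bars.

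The level of Kdr stood apart from that of other endothelial genes. Of 21 genes widely used as markers of endothelium, none was above Kdr in any library. Their highest was Egfl7 in WT at 6.83 FPKM and in NdpKO at 5.02 FPKM, and Mcam in the stabilized retinas at 8.40 FPKM and in stabilized NdpKO at 9.02 FPKM. Their median was 0.864 FPKM in WT. Flt1 lay within their range, with 4 of the 21 above it in WT. The adhesion gene Pecam1 was at 1.93 FPKM in WT, so Kdr was 20.2 times as high there, 19.8 times in NdpKO, 11.6 times in the stabilized retinas and 11.2 times in stabilized NdpKO. VEGFR2 is also known from retinal neurons and their progenitors, and the share of Kdr RNA from each cell type was not measured here. Kdr made up between 90.9% and 93.6% of the summed FPKM of the 3 receptor kinases.

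The median log2 ratio of endothelial genes was above that of each VEGF receptor in both stabilization comparisons. Of the 13 pan-endothelial genes that were tested, 8 were at least 1.5-fold higher in the stabilized retinas than in WT and none lower, with a median log2 ratio of 0.92. Genes below 1 FPKM in WT or NdpKO could enter this set through the stabilized libraries. Its counts and medians therefore partly reflect that choice. With the 10 genes at 1 FPKM or more in WT the median was 0.86. Kdr was 0.64 below the median of the 13, Nrp1 0.65, Nrp2 0.42, and Flt1 and Flt4 both 0.40. The ratio of 11 of the 13 genes was above those of Kdr and Nrp1, that of 10 above Nrp2, and that of 8 above Flt1 and Flt4. Of the 13, the 5 genes below Flt1 and Flt4 there were Emcn (-0.36), Egfl7 (0.13), Esam (0.43), Icam2 (0.51) and Cd34 (0.52). Of the 10 genes at 1 FPKM or more in WT, 8 were above Kdr and Nrp1, 7 above Nrp2 and 6 above Flt1 and Flt4. In stabilized NdpKO against NdpKO 12 of the 13 were 1.5-fold higher and the median was 0.91. There Kdr was 0.71 below it, Nrp1 0.64, Flt1 0.63, Nrp2 0.60 and Flt4 0.49, and 12 of the 13 genes had a higher ratio than any of the 5 receptors. Of the 10 genes at 1 FPKM or more in WT 9 did, and the median of those 10 was 1.00. Emcn, the gene of the sialomucin endomucin, was the exception in that comparison, at -0.30. In NdpKO against WT the median of the 13 genes was -0.00, and Flt1 stood 0.31 above it with 1 of the 13 genes higher.

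**Figure D4:**
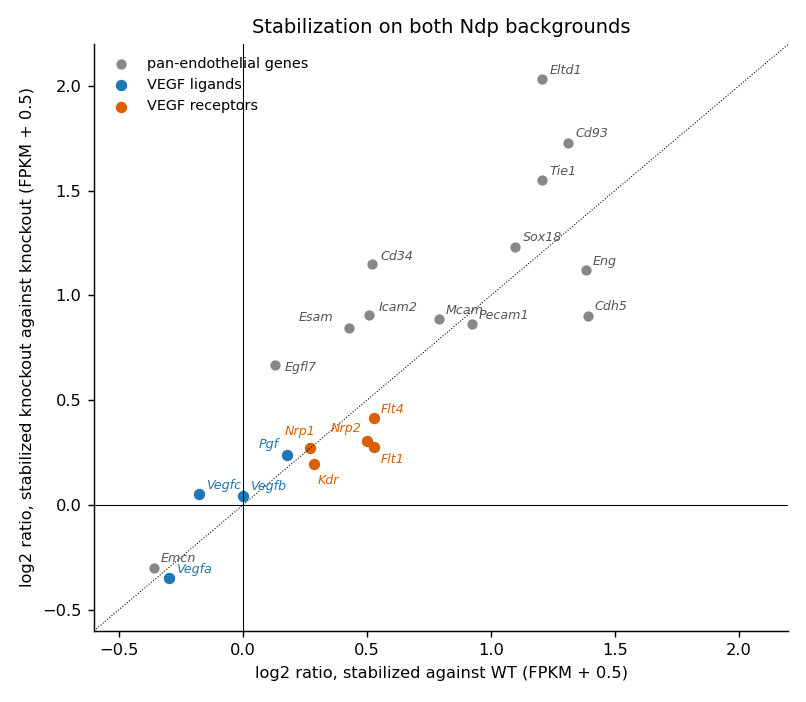
Log2 ratios of FPKM + 0.5 for stabilization with Ndp intact (horizontal) and without Ndp (vertical), 1 library against 1 on each axis, for the 4 ligands (blue), 5 receptors (orange) and 13 tested pan-endothelial genes (grey). The dotted line marks equal ratios. The receptors lie between 0.27 and 0.53 horizontally and between 0.20 and 0.41 vertically, below 12 of the 13 endothelial genes on the vertical axis. Endothelial genes below 1 FPKM in WT or NdpKO could enter through the stabilized libraries.

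Markers of several cell types were set beside these values. The endothelial and pericyte sums were higher with the receptors in the stabilized libraries. Both sums were lower in NdpKO than in WT. The endothelial list was mixed there, with 5 of its 13 tested genes above 0 and a median of -0.00. Of these 13, 1 was 1.5-fold lower and none higher. Each receptor was higher in NdpKO, from a log2 ratio of 0.03 (Kdr) to 0.30 (Flt1), with all receptor intervals overlapping. The summed FPKM of the 21 endothelial genes was 34.0 in WT, 29.7 in NdpKO, 62.0 in the stabilized retinas and 68.1 in stabilized NdpKO. The sum of 9 pericyte and smooth muscle genes was 21.7, 13.9, 35.5 and 33.5 FPKM in the same order. Most of it was the pericyte gene Rgs5, at 17.6, 9.63, 25.02 and 21.7 FPKM. Of the 5 tested genes of that list, Rgs5 alone was 1.5-fold lower in NdpKO than in WT, and the median there was 0.04. In each stabilization comparison 4 of the 5 were 1.5-fold higher, with Abcc9, Acta2 and Notch3 among them both times. These genes were below 1 FPKM in WT and NdpKO and reached the minimum mean only through the stabilized libraries. Their calls therefore partly reflect that choice. The sum of 5 erythroid genes was 69.8, 75.5, 164 and 176 FPKM. Ganglion cell genes, which mark neurons known to express neuropilins, summed over 11 genes to 455, 501, 514 and 532 FPKM. Of these, 3 were 1.5-fold higher in the stabilized retinas than in WT (median 0.37), and none in stabilized NdpKO against NdpKO (median 0.15). No gene of these lists was at exactly 0 in any library. The globin gene Hba-a2 was close to it in NdpKO, at 0.00073 FPKM (0 to 0.203) against 3.79 FPKM in WT. Of 4 tested erythroid genes, 1 was 1.5-fold higher and 2 were lower in NdpKO than in WT. The part of cell composition in the receptor levels was not tested.

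The ligand Vegfa is a target of the hypoxia-inducible factors HIF-1 and HIF-2 and is made by Muller glia, so both were set beside it. Of 16 HIF target genes other than Vegfa, 12 had a ratio below 0 in the stabilized retinas against WT, with a median of -0.21. Ak4, an adenylate kinase induced by hypoxia, was the single member at least 1.5-fold lower, at 3.89 against 6.62 FPKM with intervals apart. In stabilized NdpKO against NdpKO the median was -0.14. There Adm, the gene of the vasoactive peptide adrenomedullin, was the single member 1.5-fold lower, at 1.68 against 3.32 FPKM with intervals apart. In NdpKO against WT the median was 0.06, with Adm (0.60, intervals overlapping) and the hexokinase gene Hk2 (0.64, intervals apart) at least 1.5-fold higher. Of 9 Muller glia genes 8 had ratios below 0 in the stabilized retinas against WT, with a median of -0.28. The water channel gene Aqp4, at 1.94 against 3.88 FPKM with intervals apart, was 1.5-fold lower. Without Ndp, 8 of the 9 were again below 0, with a median of -0.08. Their summed level was 794 FPKM in WT, 844 FPKM in NdpKO, 670 FPKM in the stabilized retinas and 768 FPKM in stabilized NdpKO. Astrocytes are another source of Vegfa, and most of their tested genes had ratios opposite in direction to that of Vegfa under stabilization. Their 5 genes summed to 14.4, 17.9, 22.1 and 27.3 FPKM in the same order. Of 4 tested, the intermediate filament gene Gfap and Pdgfra were 1.5-fold higher in the stabilized retinas than in WT (median 0.52), and Pdgfra was without Ndp (median 0.39). Aldh1l1 was the exception with Ndp intact, at 1.67 FPKM against 2.09 FPKM in WT (log2 ratio -0.25). In NdpKO against WT all 4 tested astrocyte genes were above 0, as was Vegfa (0.11). The 7 pigment epithelium genes summed to 59.4, 67.3, 71.5 and 51.9 FPKM, with 3 of 6 tested 1.5-fold higher in the stabilized retinas than in WT and none in stabilized NdpKO against NdpKO. The part of glia and pigment epithelium content in the Vegfa values was not tested. Over all tested genes the medians were -0.02 and 0.03 in these stabilization comparisons.

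**Figure D5:**
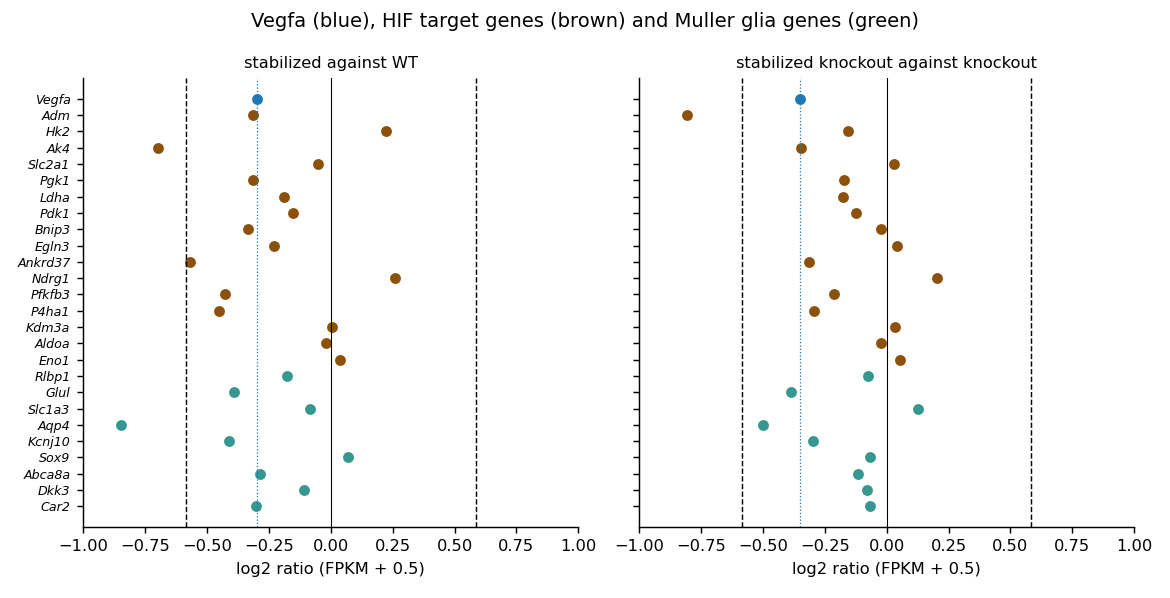
Log2 ratios of FPKM + 0.5 for Vegfa (blue), 16 other HIF target genes (brown) and 9 Muller glia genes (green) under stabilization with Ndp intact (left) and without Ndp (right), 1 library against 1. Dashed lines mark 1.5-fold and the dotted line the value of Vegfa, -0.30 on the left and -0.35 on the right. Most points of both lists lie left of 0, with Ak4 and Aqp4 past 1.5-fold on the left and Adm on the right.

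Other genes of the pathway were taken by role. Among 9 tested regulators of VEGF genes, 1 was 1.5-fold higher under stabilization on either background and none lower. This was Ets1, an ETS factor of endothelial and lymphoid cells, at 1.15 FPKM in WT, 0.956 FPKM in NdpKO, 2.71 FPKM in the stabilized retinas and 2.63 FPKM in stabilized NdpKO. The intervals of both stabilized libraries were apart from those of their controls. Epas1, which encodes HIF-2 alpha and is abundant in endothelium, was at 6.13, 7.89, 8.93 and 10.7 FPKM in the same order. It was 1.5-fold higher in stabilized NdpKO than in WT, with a log2 ratio of 0.76. Hif1a, which encodes HIF-1 alpha, ranged from 159 to 169 FPKM. The list medians were -0.01 and 0.04 in the stabilization comparisons.

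Of 11 tested semaphorin, plexin and related genes 1 was 1.5-fold higher under stabilization on either background, and none lower, with medians of 0.20 and 0.15. Plxnd1, the endothelial receptor of semaphorin 3E, was at 1.68 FPKM in WT and 1.69 FPKM in NdpKO, and at 4.00 FPKM in the stabilized retinas and 3.84 FPKM in stabilized NdpKO. Its intervals were apart in both stabilization comparisons, and its log2 ratios of 1.05 and 0.99 were larger than those of Nrp1 and Nrp2. Sema3e, its ligand, was at 2.38, 2.90, 2.69 and 2.75 FPKM.

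None of the 15 tested genes of signal transduction below VEGFR2 was 1.5-fold apart in either stabilization comparison, with medians of 0.12 and 0.16. Plcg1, the phospholipase recruited by VEGFR2, was at 13.6 and 13.0 FPKM in WT and NdpKO and at 16.7 and 16.4 FPKM in the stabilized retinas and stabilized NdpKO. Nos3, the endothelial nitric oxide synthase, was at 1.27 FPKM in WT, 1.86 FPKM in NdpKO, 2.12 FPKM in the stabilized retinas and 2.19 FPKM in stabilized NdpKO. Its log2 ratio of 0.60 in stabilized NdpKO against WT was the single one of this list past 1.5-fold in any comparison. With a pseudocount of 1 FPKM none was. With one of 0.1 FPKM 1 gene of the list was past 1.5-fold in the stabilized retinas against WT.

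Of 10 tested endothelial genes known to be induced by VEGF, 2 were 1.5-fold higher in the stabilized retinas than in WT and none lower, with a median of 0.38. They were Igfbp3, a binding protein of insulin-like growth factors, and Pdgfb, whose sequence drives the CreER, so that the RNA of the gene and of the transgene cannot be told apart. In stabilized NdpKO against NdpKO Cxcr4, a chemokine receptor of sprouting endothelium, and Pdgfb were higher and Adm was lower (median 0.30). Igfbp3 was at 1.96 FPKM in WT, 4.00 FPKM in NdpKO, 4.05 FPKM in the stabilized retinas and 5.18 FPKM in stabilized NdpKO. It was thus higher than in WT in each other library, with intervals apart. Cxcr4 was at 7.36, 5.18, 10.05 and 9.70 FPKM in the same order. In NdpKO against WT 2 members were 1.5-fold higher, Igfbp3 (0.87) and Adm. Apln, the gene of the tip-cell peptide apelin, was at 3.63 FPKM in WT and 6.19 FPKM in stabilized NdpKO, with a log2 ratio of 0.70.

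The genes whose pattern over the 4 libraries was nearest to that of Flt4, the member with a range past 1.5-fold, were Grid1, Tmem130 and Crtap. Their Euclidean distances in centred log2(FPKM + 0.5) were 0.04, 0.04 and 0.05 over 4 libraries and 11711 genes. Grid1 was at 4.33, 4.93, 6.35 and 6.92 FPKM in WT, NdpKO, stabilized and stabilized NdpKO. For Flt1, added after its values were seen because its range of 1.49-fold fell just short, the nearest were Parvb (0.02), Egflam (0.04) and Dner (0.04). With 4 libraries and 11711 candidates near matches are to be found for most patterns, and these names are given as a description.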

How the data were processed

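RNA of whole retina was measured in 4 libraries, 1 per genotype, with 3 RNA batches pooled per library, per the labels' protocols. The authors deposited 1 table that lists, for every gene in each library, the FPKM with its bounds and a status. The submitters' processing notes name TopHat, Cuffdiff and mm10. Versions, annotation, interval level, strand and read totals are not stated. Columns were matched to libraries by the number in their name and in the sample description.

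Log2 ratios used FPKM plus 0.5 over 13150 genes with a mean of at least 1 FPKM and status OK in every library. A total of 145 genes had another status. Calls are differences of at least 1.5-fold, with no test. Ratios from outer bounds divide the lower bound of 1 value by the upper bound of the other, and the reverse. The members, gene lists and rules were chosen with earlier results of these data known. Named were all members, pathway genes past 1.5-fold up to 6 per list, leading pan-endothelial genes and the 3 nearest patterns. Of the label checks, Ndp, Pdgfb and Xist were named, and the values of Ctnnb1, Cldn5, Plvap and Ddx3y are not given. Pecam1, Emcn, Aqp4, Figf, Hif1a, Plcg1, Sema3e, Prox1, Pdpn, Reln, Esam, Icam2, Rgs5, Gfap and Pdgfra were named outside that rule, after their values were seen. So were Aldh1l1, Abcc9, Acta2, Notch3 and Hba-a2. Alternatives were a pseudocount of 0.1 or 1 FPKM, a minimum of 0.5 or 5 FPKM or no minimum, rescaling to TPM or to equal totals, re-centring on the median, intervals apart, a 2-fold threshold and other forms of the endothelial list. The ratio calculation was tested on simulated data. Python 3.11.15, numpy 2.4.6, pandas 2.3.3 and matplotlib 3.10.9 were used.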

Additional observations from a re-analysis of the deposited data

How the results depend on the processing

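No tested member was 1.5-fold lower in any of the 5 comparisons under any alternative. Counts of members at least 1.5-fold higher moved from 0 in these cases. In the stabilized retinas against WT, the count was 1 with a pseudocount of 0.1 FPKM (Flt1) and 2 after rescaling to TPM (Flt1 and Nrp2). In stabilized NdpKO against WT it was 1 with a pseudocount of 0.1 FPKM and 1 after rescaling to TPM (Flt1 in both), and 1 with a minimum of 0.5 FPKM and 1 with no minimum (Flt4 in both, which these settings admit). With a pseudocount of 0.1 and a minimum of 0.5 FPKM together, chosen after seeing the data, the counts were 2 in each of these comparisons and 1 in stabilized NdpKO against NdpKO. Rescaling to TPM equalises the totals and also makes the pseudocount smaller relative to the values. Equal totals with the FPKM scale kept, likewise chosen after seeing the data, gave 0 members in every comparison. The other 101 of 110 member counts were as reported. A minimum of 5 FPKM kept 4 members. The log2 ratio of Flt4 was 0.88 in the stabilized retinas against WT and 1.03 in stabilized NdpKO against WT with a pseudocount of 0.1, and the other 223 of 225 member ratios moved by less than the deposited intervals. The endothelial excess over each receptor kept its sign in both stabilization comparisons under every form of the list tried. No paired analysis was possible because each genotype has 1 library and the labels carry no shared replicate numbers, and for the same reason no library could be left out. Of the counts over gene lists 71 of 660 moved by more than 1.5 times, or to or from 0. Precision is lowest for Pgf, Flt4 and Vegfc, which have the widest intervals.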
